A study of Homo sapiens with 12 samples.

Results

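VCP (p97) and 9 of its cofactors were described at the level of mRNA in HCT116 cells, a human colorectal carcinoma line, before and after loss of SDS22. The 10 genes were VCP, NSFL1C (p47), UBXN2A, UBXN2B (p37), UBXN1, UBXN4, UBXN6, UBXN7, FAF1 and NPLOC4, picked by name out of 58233 genes in the deposited count table. All 10 had enough reads to be tested. The parental cells, HCT116 Tet-OsTIR1, carry the rice F-box protein TIR1 at the AAVS1 locus under a doxycycline-inducible promoter. The SDS22-degron cells were derived from them, carry the same transgene, and express SDS22 from both PPP1R7 alleles as a fusion with mAID and mClover; they were expanded from an individual colony, so differences between the lines can also be differences of that clone. Both lines were sampled without treatment and after 48 h in doxycycline (Dox, 2 µg/ml), which induces TIR1, and the auxin IAA (500 µM), through which the tagged SDS22 is ubiquitinated and degraded. RNA-seq was done on 3 biological replicates of each of these 4 conditions, 12 libraries in all. The parental cells thus received the same agents without carrying the tag.

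VCP is a hexameric AAA+ ATPase that pulls proteins through its central channel and so extracts them from complexes, membranes or chromatin. What it acts on is set by cofactors, among them a family that carries a UBX domain. The inactive complex of SDS22, nascent PP1 and Inhibitor-3 is a substrate of VCP, and the cofactors with a SEP domain, p37, p47 and UBXN2A, are the ones known to guide this reaction, which does not need ubiquitin. NPLOC4 forms with UFD1 the main receptor for ubiquitinated substrates, which FAF1 and UBXN7 join as additional cofactors. UBXN1 binds ubiquitin chains, UBXN4 resides in the membrane of the endoplasmic reticulum (ER) and serves ER-associated degradation, and UBXN6 acts with VCP in endosomal sorting and in the clearance of damaged lysosomes.

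The sequence before the transcription start is shown for VCP, in which CCAAT boxes recurred, and for 3 of the cofactors that differed between conditions. RefSeq (GRCh38.p14) gave a start for 9 of the 10 genes, not for UBXN2B. The other genes with a start were searched for the same motifs but are not shown. Among them are UBXN4 and UBXN6, which rose with Dox/IAA in SDS22-degron cells. The bases run 5′ to 3′ on the strand of the gene, from 250 bases before the start, and stop before any base found in an annotated transcript of the same gene. Capitals mark, on either strand and without overlaps, the CCAAT box (CCAAT), the GC box (GGGCGG) and the E box (CACGTG). The window is chr9:35072669-35072875 (minus strand) for VCP, chr20:1466919-1467099 (minus) for NSFL1C, chr3:196432428-196432677 (minus) for UBXN7 and chr1:50960268-50960517 (minus) for FAF1.
VCP: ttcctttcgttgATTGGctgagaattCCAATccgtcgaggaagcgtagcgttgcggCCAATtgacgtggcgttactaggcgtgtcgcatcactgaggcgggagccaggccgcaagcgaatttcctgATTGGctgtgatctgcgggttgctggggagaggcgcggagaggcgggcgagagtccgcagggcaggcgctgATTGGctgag
NSFL1C: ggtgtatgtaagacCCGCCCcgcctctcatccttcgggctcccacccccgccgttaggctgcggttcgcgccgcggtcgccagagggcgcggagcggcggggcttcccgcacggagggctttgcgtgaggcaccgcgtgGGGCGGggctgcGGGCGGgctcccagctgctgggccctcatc
UBXN7: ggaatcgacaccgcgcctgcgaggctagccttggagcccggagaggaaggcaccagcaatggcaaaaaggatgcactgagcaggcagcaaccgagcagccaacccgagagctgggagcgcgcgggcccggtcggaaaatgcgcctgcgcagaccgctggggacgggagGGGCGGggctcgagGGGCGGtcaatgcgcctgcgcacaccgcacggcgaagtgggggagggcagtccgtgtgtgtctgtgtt
FAF1: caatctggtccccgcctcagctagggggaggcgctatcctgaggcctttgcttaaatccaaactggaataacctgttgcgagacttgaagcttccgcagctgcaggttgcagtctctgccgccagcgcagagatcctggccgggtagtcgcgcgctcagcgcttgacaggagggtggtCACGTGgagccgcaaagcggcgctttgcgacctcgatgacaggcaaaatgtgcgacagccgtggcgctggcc
The VCP window held 5 CCAAT boxes. In the 250 bases before the start, 32.0% of 35116 RefSeq starts had a CCAAT box, and 0.319% had at least as many as VCP. VCP and this motif were picked for the pattern, out of 5 motifs and 9 genes, so the share is a description. GC boxes stood 3 times before NSFL1C and 2 times before UBXN7, against 42.6% of all starts with a GC box, and an E box stood before FAF1, against 6.34%. A GC box also stood before UBXN1 and UBXN2A (4 of 9 genes in all), and an E box also before UBXN1 (2 of 9). A CCAAT box also stood before NPLOC4 (2 of 9). None of the 5 motifs matched before UBXN4 or UBXN6. Of the other motifs searched, the core of the antioxidant response element (TGACNNNGC) matched before VCP alone of the 9 genes, against 10.9% of all starts. The cell-cycle homology region (TTTGAA, 13.3% of all starts) matched before NPLOC4 alone, and so not before VCP or the 3 cofactors shown. These are matches of letters, not sites shown to be bound. The RefSeq start lies 624 bases from the outer end of the gene in the deposited table for VCP, 6993 bases for NSFL1C, 47 for UBXN7 and 4 for FAF1.

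Positions are those of the count table, on GRCh38 by the submitters' processing notes. VCP spans chr9:35056064-35073249 and NSFL1C chr20:1442162-1473842, both on the minus strand. UBXN2A (chr2:23927285-24004909) and UBXN4 (chr2:135741619-135785055) lie on the plus strand of the same chromosome. The ubiquitin adaptors NPLOC4 (chr17:81556887-81648465), FAF1 (chr1:50437028-50960263) and UBXN7 (chr3:196347662-196432474) are on the minus strand, as are UBXN1 (chr11:62676498-62679117) and UBXN6 (chr19:4444999-4457822). UBXN2B lies on the plus strand of chromosome 8.

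The libraries held 12133915 to 14657508 gene-assigned reads (median 12662965). The 10 genes took between 0.130% and 0.159% of these reads. The libraries had the epithelial genes EPCAM, KRT8, KRT18 and KRT19 at high levels, while the enterocyte genes VIL1, CDX1 and LGALS4 had at most 2 reads. Of 10 markers of other cell types, 9 had at most 4 reads in any library, whereas COL1A1 had 117 to 410 and rose with Dox/IAA by 0.94 on the log2 scale in SDS22-degron and by 0.81 in parental cells. PPP1R7, which encodes SDS22, did not fall with Dox/IAA in SDS22-degron cells: it stood at 44.0 CPM ± 2.95 (SD, n = 3) untreated and at 47.9 CPM ± 3.39 treated, which is 0.12 higher on the log2 scale (adjusted p = 0.265). Degradation acts on the protein, so the count table does not show the depletion itself. As measured in bulk RNA, fewer cells that express a gene and less RNA of it per cell cannot be told apart.

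Per length, VCP mRNA was the most abundant of the set, and the cofactor mRNAs spread over a wide range below it. RPKM, the reads per kilobase of the gene length in the table and per 1e6 TMM-normalized reads, averaged 76.7 ± 3.38 (SD, n = 12) for VCP, which was higher than 96.0% of tested genes. NPLOC4 followed at 35.1 RPKM and UBXN4 at 31.4, which did not stand apart, NPLOC4 being higher in 9 of 12 libraries. UBXN1 averaged 24.1 RPKM, UBXN6 18.8 and UBXN2B 13.9. UBXN7 at 10.7 RPKM and NSFL1C at 10.6 were not separated either (UBXN7 higher in 8 of 12 libraries). FAF1 averaged 8.64 RPKM and UBXN2A 6.01, the latter 7.83% of VCP. Of genes next to each other in this order, VCP and NPLOC4, and UBXN4 and UBXN1, had ranges over all libraries that did not overlap. Among the SEP-domain adaptors, p37 mRNA was thus above p47 mRNA per length on average, and UBXN2A mRNA was the lowest. The order depends on the gene lengths used. Not divided by length, UBXN2B averaged 74.9 CPM (TMM-normalized) and NSFL1C 69.3, and UBXN7 (121) stood above UBXN1 (61.0). Whether these lengths match the transcripts present was not tested.

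Dox/IAA treatment of SDS22-degron cells, the comparison that holds the line constant and removes SDS22, left VCP mRNA near its untreated level while 6 of its 9 cofactors changed. UBXN6, UBXN2B, UBXN7 and UBXN4 rose and FAF1 and NSFL1C fell. The call was an adjusted p under 0.05 in the quasi-likelihood F test of edgeR with Benjamini-Hochberg adjustment over 16657 genes. In the same comparison 51.5% of all tested genes passed, 26% higher and 25.5% lower, so that 6 of 10 is close to the share among all genes. The fold changes were small: the median over the 10 genes was 0.11 on the log2 scale, beside 0.00 over all genes, and they ran from −0.36 (FAF1) to 0.62 (UBXN6). None of the 10 exceeded an absolute log2 fold change of 1 in any comparison.

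Between the treated lines, 5 of the 10 genes differed. UBXN6, UBXN1 and UBXN2B were higher in treated SDS22-degron cells than in treated parental cells, and FAF1 and UBXN7 were lower. Of all genes, 44.9% passed in this comparison, 21.8% higher and 23.1% lower, and the median log2 fold change was 0.07 over the 10 genes and −0.01 over all. Between the untreated lines, where SDS22 is tagged but present, 4 of 10 differed, with UBXN2A and NPLOC4 higher and UBXN7 and FAF1 lower in SDS22-degron cells (28.2% of all genes, 13.2% higher and 15% lower). These lines therefore differed in some cofactors before any treatment.

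Dox/IAA in parental cells, the control for the agents, was followed by a change in 5 of 10 genes. UBXN2A, NPLOC4, UBXN6 and UBXN7 rose and FAF1 fell, against 31.6% of all genes (15.9% higher and 15.7% lower). The medians were 0.16 over the 10 genes and 0.00 over all. UBXN6, UBXN7 and FAF1 passed in both lines, each in the same direction. Whether the effect of Dox/IAA differed between the lines was tested by the interaction of line and treatment. None of the 10 genes passed (0 of 10 by edgeR, by its likelihood ratio test and by DESeq2), and 4 had an unadjusted p under 0.05, whereas 14.4% of all genes passed, 6.03% higher and 8.35% lower. With the replicate number as a block, 3 of the 10 passed, NSFL1C (adjusted p = 0.0372), UBXN6 (0.0405) and NPLOC4 (0.0492). With 3 replicates per group the median standard error of the interaction was 0.156 on the log2 scale over all genes.

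**Figure D1:**
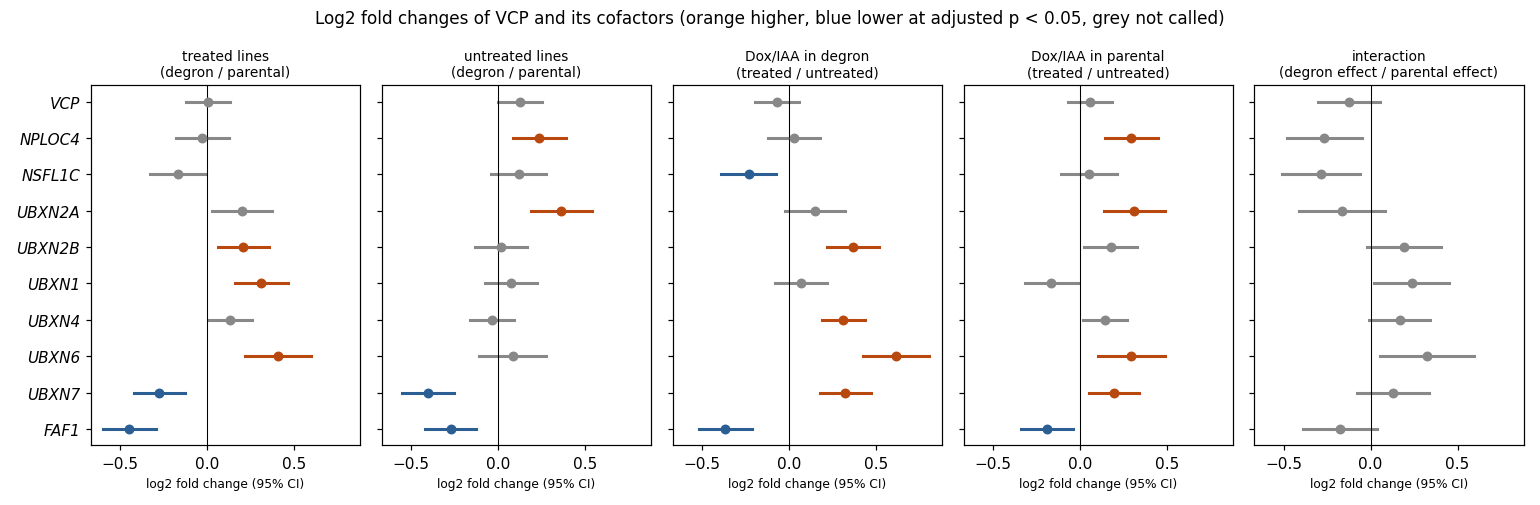
Log2 fold changes of the 10 genes (x axis) with their 95% confidence intervals in the 4 comparisons and the interaction. Genes in orange were higher and genes in blue lower at an adjusted p under 0.05, and no gene is coloured in the interaction.

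VCP itself was nearly constant. Its mRNA was measured at 409, 398 and 390.4 CPM (TMM-normalized counts relative to library size) in untreated parental libraries and at 407, 422 and 419.8 CPM after Dox/IAA. Untreated SDS22-degron libraries had 432, 431 and 447 CPM and treated ones 425, 389.9 and 436. The untreated SDS22-degron libraries were all above the untreated parental ones, and also above the treated parental ones, while the treated SDS22-degron libraries overlapped every other group. Between the treated lines VCP differed by 0.00 on the log2 scale (95% confidence interval −0.12 to 0.13, adjusted p = 0.975). Dox/IAA in SDS22-degron cells moved it by −0.07 (−0.19 to 0.06, adjusted p = 0.382) and in parental cells by 0.06 (−0.07 to 0.19, adjusted p = 0.483). The difference between the untreated lines was 0.13 (adjusted p = 0.123), and it passed with upper-quartile normalization (0.16, adjusted p = 0.0419).

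**Figure D2:**
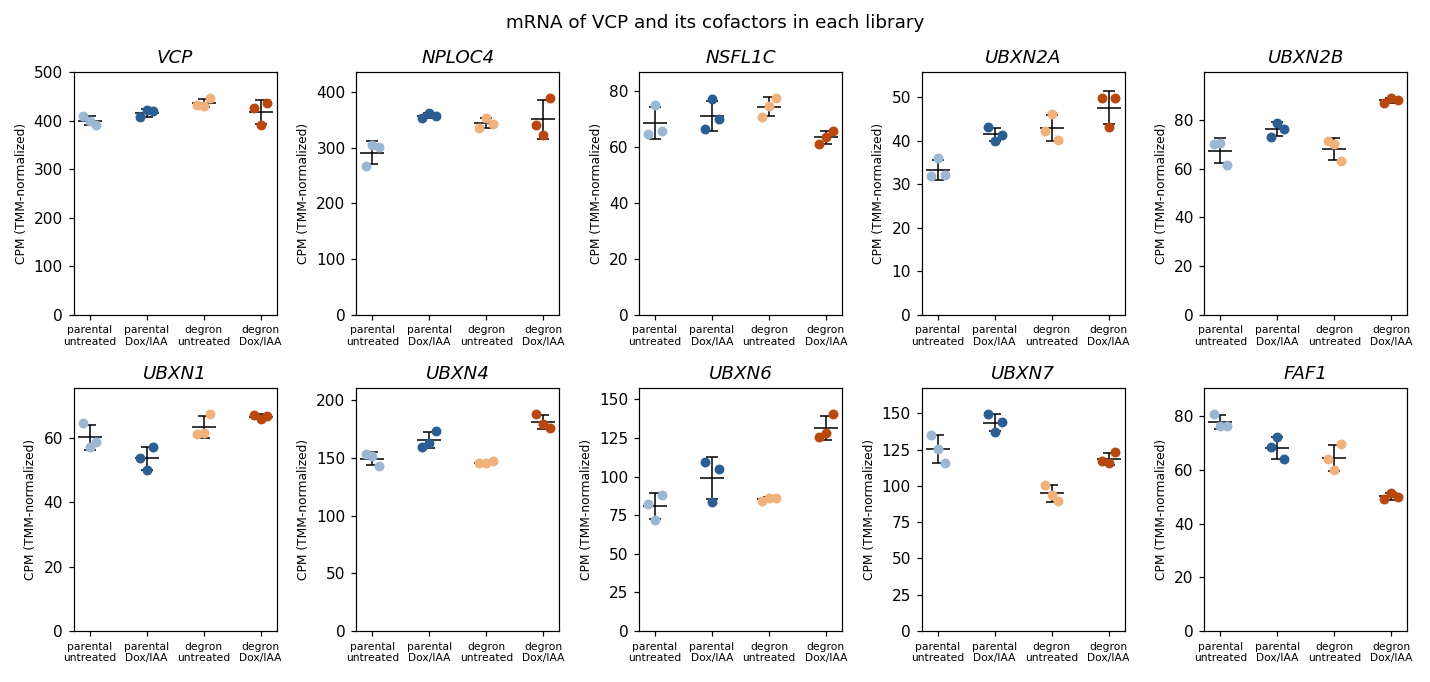
TMM-normalized CPM of each gene in every library, with 1 panel per gene and each y axis starting at 0. Points are libraries, the horizontal mark is the mean and the bars the SD (n = 3); treated SDS22-degron libraries lie above all others for UBXN6, UBXN2B and UBXN4 and below all others for FAF1.

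The related adaptors p47 and p37, which both carry a SEP and a UBX domain, moved in opposite directions in SDS22-degron cells. NSFL1C (p47) mRNA was at 70.7, 74.7 and 77.4 CPM in untreated and at 61.1, 63.4 and 65.5 CPM in treated SDS22-degron libraries. These groups did not overlap, and p47 mRNA changed by −0.23 on the log2 scale (standard error 0.0756, adjusted p = 0.0163). In parental cells it was at 64.7, 75.1 and 65.5 CPM untreated and at 66.5, 76.9 and 69.8 CPM treated, with replicate 2 the highest of each, and the change was 0.05 (adjusted p = 0.632). The treated lines differed by −0.17, without overlap (adjusted p = 0.0839, or 0.0450 with the replicate block), and the interaction was −0.28 (adjusted p = 0.0846, or 0.0372 with the block). The fall of NSFL1C lost its call without untreated SDS22-degron replicate 3 (adjusted p = 0.0651) or treated SDS22-degron replicate 1 (0.0518), and the interaction passed without untreated parental replicate 2 (0.0201) or treated parental replicate 1 (0.0487).

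UBXN2B (p37) rose with Dox/IAA in SDS22-degron cells, from 71.4, 70.2 and 63.0 CPM to 87.1, 89.0 and 88.0 CPM, or by 0.37 on the log2 scale (standard error 0.0709, adjusted p = 0.000271). All 3 treated libraries were above every other library of the study. Parental cells had 70.1, 70.5 and 61.4 CPM untreated and 73.2, 78.9 and 76.5 CPM treated. That difference, also without overlap, was 0.18 and did not pass (adjusted p = 0.0671), but passed with the replicate block (0.0393) and with library size alone (0.0194) or the upper quartile (0.0370) as normalization. The difference between the treated lines was 0.21 (adjusted p = 0.0220), and it lost its call when treated parental replicate 1 or 3 or treated SDS22-degron replicate 2 or 3 was left out, with adjusted p up to 0.0923. A processed pseudogene on the opposite strand, RP11-114M5.1, overlaps UBXN2B by 2098 bases and had 84 to 144 reads per library. Its own log2 fold change with Dox/IAA in SDS22-degron cells was 0.03 (adjusted p = 0.873). The libraries were stranded, but the sources used here do not say whether counting used the strand.

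UBXN2A, the adaptor with the lowest level, had 32.0, 36.0 and 32.1 CPM in untreated parental libraries and 43.1, 39.9 and 41.4 CPM after Dox/IAA. It rose there by 0.31 on the log2 scale (adjusted p = 0.00842), without overlap. Untreated SDS22-degron libraries already stood at 42.4, 46.2 and 40.2 CPM, 0.37 above untreated parental cells (adjusted p = 0.00302). Treated SDS22-degron libraries had 49.9, 43.3 and 49.7 CPM, which overlapped the untreated ones (log2 fold change 0.15, adjusted p = 0.137). That change passed with the GC correction (0.0477, or 0.0483 with the replicate block added). The treated lines differed by 0.20 (adjusted p = 0.0556), which passed without untreated parental replicate 2 (0.0460) or treated SDS22-degron replicate 2 (0.0212). This difference also passed with library size alone (0.0437) or the upper quartile (0.0238) as normalization. With the GC correction it passed too (0.0334, or 0.0338 with the block added). The interaction was −0.17 (adjusted p = 0.383). Genes within 2 Mb of UBXN2A, 21 in number, had a median of 0.21 in the comparison of untreated lines and 0.16 in that of treated lines. With Dox/IAA their median was 0.20 in parental and 0.29 in SDS22-degron cells.

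The balance of p47 to p37 mRNA was lowest in treated SDS22-degron cells. The ratio of NSFL1C to UBXN2B RPKM was 0.818, 0.879 and 1.01 in untreated and 0.579, 0.588 and 0.614 in treated SDS22-degron libraries. In parental libraries it was 0.761, 0.878 and 0.881 untreated and 0.750, 0.804 and 0.753 treated. The 3 treated SDS22-degron libraries were thus below all 9 others, while each parental condition overlapped the other and untreated SDS22-degron libraries overlapped the untreated parental ones. The mean log2 ratio differed by −0.60 with Dox/IAA in SDS22-degron cells and by −0.37 between the treated lines (exact two-sided permutation test, p = 0.1 for each, the smallest that 3 against 3 libraries allow). It differed by −0.12 with Dox/IAA in parental cells (exact permutation p = 0.2) and by 0.10 between the untreated lines (exact permutation p = 0.5).

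**Figure D3:**
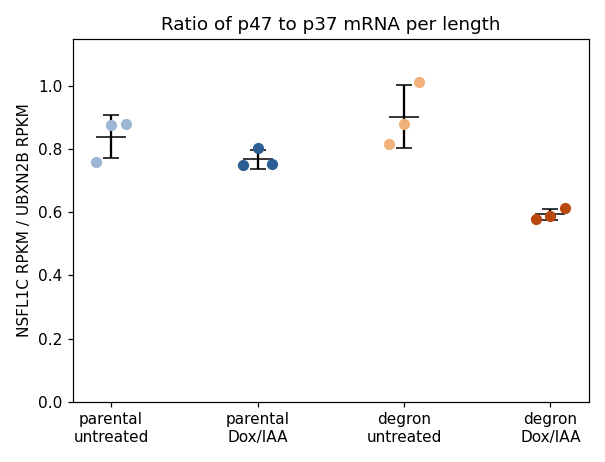
Ratio of NSFL1C (p47) to UBXN2B (p37) mRNA, each in RPKM, in every library, with the mean and SD of each condition (n = 3). Treated SDS22-degron libraries lie between 0.579 and 0.614, below all other libraries.

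NPLOC4, the ubiquitin-binding partner of UFD1, responded in parental cells. It was at 268, 306 and 301 CPM in untreated and at 353, 363 and 358 CPM in treated parental libraries, without overlap, a rise of 0.30 on the log2 scale (adjusted p = 0.00440). SDS22-degron libraries had 335, 353 and 344 CPM untreated and 342, 322 and 389.7 CPM treated. The treated ones spread on both sides of the untreated ones, and the log2 fold change was 0.03 (95% confidence interval −0.12 to 0.18). The untreated lines differed by 0.24 (adjusted p = 0.0188), a call that was lost without untreated parental replicate 1 (0.0816) or untreated SDS22-degron replicate 2 (0.0778). The interaction was −0.27 (adjusted p = 0.0899), and it passed with the replicate block (0.0492) and without untreated parental replicate 2 (0.0448) or treated SDS22-degron replicate 3 (0.0226). TSPAN10, on the opposite strand within the span of NPLOC4, had 28 to 68 reads per library. Its own log2 fold change with Dox/IAA was 0.75 in parental cells (adjusted p = 0.00493) and 0.63 in SDS22-degron cells (adjusted p = 0.00979).

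FAF1, which joins VCP with UFD1 and NPLOC4 on ubiquitinated substrates, was lowest in treated SDS22-degron cells. Its mRNA fell from 63.9, 60.0 and 69.7 CPM to 49.1, 51.5 and 49.7 CPM, or by −0.36 on the log2 scale (standard error 0.0719, adjusted p = 0.000347). The 3 treated libraries were below all 9 others. Parental libraries had 80.8, 76.4 and 76.5 CPM untreated and 68.5, 72.3 and 64.2 CPM treated, a change of −0.19 (adjusted p = 0.0479). That call was lost in 18 of 22 alternative settings, with adjusted p up to 0.197; of single libraries left out, treated parental replicate 2 and untreated SDS22-degron replicate 3 were the exceptions. FAF1 was already lower in untreated SDS22-degron than in untreated parental cells (log2 fold change −0.27, adjusted p = 0.00720), a call lost without untreated SDS22-degron replicate 2 (0.0553). Between the treated lines the difference was −0.45 (adjusted p = 6.21e-05), the largest in size of the 10 genes there. FAF1 lies on chromosome 1, and relative to the median of that chromosome it differed by −0.14 between the untreated and −0.33 between the treated lines.

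UBXN7, which links VCP to ubiquitinated substrates and to cullin ligases, differed between the lines in 1 direction and with treatment in the other. Parental libraries had 135, 125 and 116 CPM untreated and 149, 137 and 144 CPM treated. SDS22-degron libraries had 101, 93.8 and 89.7 CPM untreated and 117, 116 and 123 CPM treated. The untreated lines did not overlap and differed by −0.40 (adjusted p = 0.000307), and the treated lines did not overlap and differed by −0.27 (adjusted p = 0.00347). With Dox/IAA it rose by 0.32 in SDS22-degron cells (adjusted p = 0.000781) and by 0.20 in parental cells (adjusted p = 0.0375, lost without any of 5 libraries: untreated parental replicate 2 or 3, treated parental replicate 1 or 3, or untreated SDS22-degron replicate 2, up to 0.173). UBXN7 lies on chromosome 3, whose 938 tested genes had a median of −0.27 between the untreated and −0.26 between the treated lines. Relative to these medians UBXN7 differed by −0.13 and −0.02. The 43 genes within 2 Mb of it had medians of −0.31 and −0.41, and whether the number of copies differs between the lines was not tested.

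UBXN1, a ubiquitin-binding cofactor, had 64.5, 57.2 and 58.7 CPM in untreated and 53.8, 50.0 and 57.2 CPM in treated parental libraries, a log2 fold change of −0.16 (adjusted p = 0.0958). In SDS22-degron libraries it stood at 61.2, 61.6 and 67.3 CPM untreated and at 67.2, 65.9 and 66.7 CPM treated, and the change was 0.07 (adjusted p = 0.421). The treated lines did not overlap and differed by 0.31 (adjusted p = 0.00182), although neither line showed a change with treatment that passed. The interaction was 0.24 (adjusted p = 0.134).

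UBXN4, the cofactor of the ER membrane, rose with Dox/IAA in SDS22-degron cells from 146, 145 and 147 CPM to 188, 179.9 and 176 CPM, or by 0.31 on the log2 scale (standard error 0.0593, adjusted p = 0.000233). In parental cells it was at 154, 152 and 143 CPM untreated and at 159.9, 163 and 173 CPM treated. Both lines separated treated from untreated libraries, but the parental change of 0.15 did not pass (adjusted p = 0.0701), and neither did the difference between the treated lines (0.13, adjusted p = 0.0726). With the upper quartile as normalization both passed (0.0331 and 0.0254), and with DESeq2 the latter did (0.0465).

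UBXN6, the endolysosomal cofactor, had the largest rise of the set. In SDS22-degron cells it went from 84.4, 86.4 and 86.2 CPM to 126, 129 and 140.4 CPM, or by 0.62 on the log2 scale (standard error 0.0904, adjusted p = 1.57e-05). In parental cells it was at 82.6, 71.9 and 88.1 CPM untreated and at 109, 83.6 and 105 CPM treated. These parental groups overlapped, with replicate 2 the lowest of each, and the change of 0.30 (adjusted p = 0.0197) lost its call without untreated parental replicate 2 (0.0931) or treated parental replicate 1 (0.101) or 3 (0.0859). The treated lines did not overlap and differed by 0.41 (adjusted p = 0.00119), and the untreated lines by 0.08 (adjusted p = 0.535). The interaction was 0.32 (adjusted p = 0.102), and passed with the replicate block (0.0405) and without untreated parental replicate 2 (0.0417). CHAF1A, a subunit of the histone chaperone CAF-1, ends on the opposite strand and shares 20 bases with UBXN6. CHAF1A had 465 to 1458 reads per library and a log2 fold change of −1.24 with Dox/IAA in SDS22-degron cells, opposite in sign to UBXN6. The noncoding CTB-50L17.8, on the opposite strand within UBXN6, had at most 51 reads.

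The summed level of the 9 cofactors relative to VCP was highest in treated SDS22-degron cells. Their RPKM added up to 2.02 ± 0.0257 times (SD, n = 3) that of VCP in untreated and to 2.12 ± 0.0636 times in treated parental cells, and to 1.91 ± 0.0300 and 2.27 ± 0.0787 times in untreated and treated SDS22-degron cells. Within this sum UBXN6 made up 10.6% ± 0.0485 in untreated and 14.4% ± 0.513 in treated SDS22-degron cells, while FAF1 made up 5.59% ± 0.403 and 3.83% ± 0.189. NSFL1C made up 7.43% ± 0.268 and 5.59% ± 0.165. These shares describe mRNA per length and were not tested.

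Of the 6 genes of the nascent PP1 complex and its early inhibitors, 2 passed with Dox/IAA in SDS22-degron cells, beside 51.5% of all genes. PPP1CC (PP1γ) fell and PPP1R2 (Inhibitor-2) rose with Dox/IAA in SDS22-degron cells, with log2 fold changes of −0.42 (adjusted p = 0.000239) and 0.49 (adjusted p = 0.00386). PPP1R11 (Inhibitor-3) had −0.02, PPP1CA 0.08, PPP1CB 0.10 and PPP1R7 0.12, and did not pass. In parental cells PPP1CA alone of the 6 passed (0.22, adjusted p = 0.00837), 3 passed with the replicate block, and 2 passed without untreated parental replicate 2 or 3, untreated SDS22-degron replicate 3 or treated SDS22-degron replicate 1 or 3. Between the treated lines PPP1CC alone passed (−0.21, adjusted p = 0.0410), between the untreated lines 0 of the 6 did (0 with an unadjusted p under 0.05, 0 by DESeq2), and 0 passed in the interaction (1 with an unadjusted p under 0.05, 0 by DESeq2, 1 with the replicate block). PPP1CC between the treated lines was lost in 9 of the alternative settings, among them without treated parental replicate 2 or 3, untreated SDS22-degron replicate 1 or any treated SDS22-degron replicate.

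Other VCP cofactors, 22 tested genes that bind through PUB, PUL, VIM, VBM or SHP motifs, were called at shares near those of all genes. With Dox/IAA in SDS22-degron cells 7 rose and 4 fell (median 0.06; 51.5% of all genes passed), among the latter HSPBP1 at −0.54 and RHBDD1, an ER rhomboid protease, at −0.41. In parental cells 3 rose and 3 fell (median −0.03; 31.6% of all genes; 3 in all without untreated parental replicate 1), with HSPBP1 at −0.35 and RHBDD1 at −0.52 among those that fell. Between the treated lines 3 were higher and 7 lower (44.9% of all genes, 21.8% higher and 23.1% lower). Those lower included SVIP, a small inhibitor of ER-associated degradation, at −0.73, and NGLY1, the cytosolic N-glycanase, at −0.46. Between the untreated lines 0 were higher and 6 lower (13.2% and 15% of all genes), SVIP (−0.56) and NGLY1 (−0.59) among them. Between the treated lines, 1 of those higher was RNF31. This ubiquitin ligase (HOIP) was higher by 0.43 there. Of 5 further UBX-domain and partner genes, ASPSCR1 rose (0.37) and UBXN11 fell (−0.84) with Dox/IAA in SDS22-degron cells, UBXN11 from a mean of 8.17 to 4.55 CPM.

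Downstream of VCP, most genes of the 26S proteasome fell in SDS22-degron cells. With Dox/IAA 29 of 32 fell there, beside 25.5% of all genes. All 32 had log2 fold changes below 0 (−0.59 to −0.07, median −0.39). In parental cells 0 of 32 passed by edgeR, 0 by DESeq2 and 0 at an unadjusted p under 0.05 (median −0.03). There 31.6% of all genes passed by edgeR. Without replicate 2 of either parental condition 1 of the 32 passed. The interaction passed for 14, all lower (23 without untreated parental replicate 2), while 8.35% of all genes passed as lower. The effect was lower in SDS22-degron than in parental cells for 32 of 32 genes, beside 5 of the 10 genes for VCP and its cofactors. PSMD2, a subunit of the regulatory particle, averaged 323 ± 19.7 CPM without and 226 ± 11.4 CPM with Dox/IAA in SDS22-degron cells (SD, n = 3; log2 fold change −0.51, adjusted p = 9.58e-05), and PSMB3 of the core particle 159.9 ± 6.49 and 106 ± 7.26 CPM (−0.59, adjusted p = 3.28e-06). Between the treated lines 26 of 32 were lower in SDS22-degron cells (23.1% of all genes), with PSMD2 at −0.84, PSMB2 at −0.77 and PSMC3 at −0.59. Between the untreated lines 6 of 32 were already lower (3 without untreated SDS22-degron replicate 1 or 2), near the 15% of all genes. PSMD2 was at −0.30 (adjusted p = 0.0175) and PSMB2 at −0.41 (adjusted p = 0.00166) there, and the interaction did not pass for PSMB2 (adjusted p = 0.0597). In the same treated cells 16 of 16 proliferation genes were lower (25.5% of all genes), with summed levels of 1587 to 1911 CPM against 4160 to 4238 CPM untreated. In parental cells 6 of these 16 fell with Dox/IAA (15.7% of all genes). The part of the proliferation genes in the results was not tested.

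**Figure D4:**
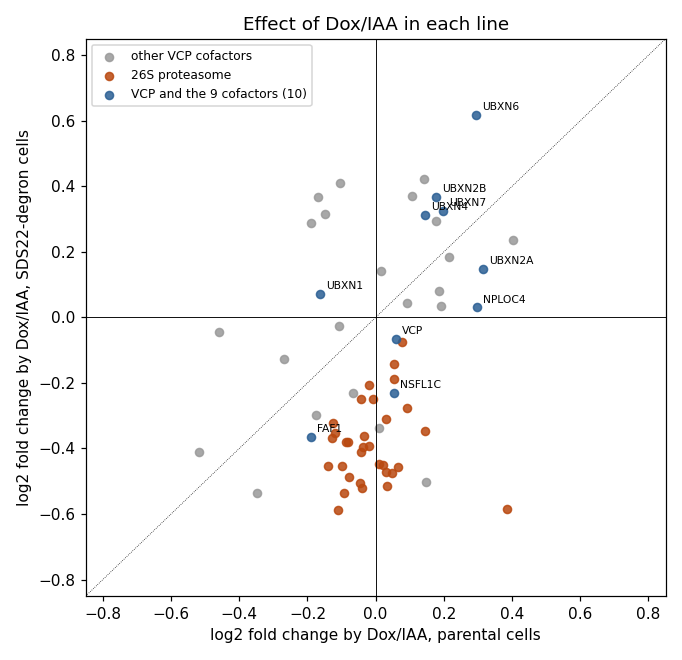
Log2 fold change with Dox/IAA in parental cells (x axis) and in SDS22-degron cells (y axis) for VCP and its 9 cofactors (blue), 22 other VCP cofactors (grey) and 32 proteasome genes (orange); the dotted line marks equal effects. All 32 proteasome genes lie below that line, and the 10 labelled genes lie on both sides of it, 5 below and 5 above.

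Genes of ER-associated degradation, the best known task of VCP with UFD1 and NPLOC4, were called with Dox/IAA about as often as all genes. With Dox/IAA in SDS22-degron cells 7 of 20 rose and 3 fell (median 0.15; 26% and 25.5% of all genes), with the lectins OS9 (0.81, adjusted p = 1.17e-07) and ERLEC1 (0.61, adjusted p = 5.72e-06) among those that rose and the ubiquitin-conjugating enzyme UBE2G2 (−0.60, adjusted p = 1.23e-07) among those that fell. In parental cells 2 rose and 5 fell (15.9% and 15.7% of all genes; 4 in all without untreated parental replicate 1), and OS9 (0.26), ERLEC1 (0.39) and UBE2G2 (−0.27) passed there with the same signs.

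Outside these lists, the genes whose level ran most like that of VCP over the 12 libraries were sought among 10841 genes with a mean of at least 10 CPM. By Pearson's r of log2 CPM these were CMB9-22P13.1 (0.883), ACTR1A (0.871), DOLPP1 (0.865), C2CD3 (0.860) and ATP5SL (0.822). VCP varied little, with an SD of 0.0639 on the log2 scale over all libraries. For NSFL1C they were BNIP1 (0.965), H2AFY (0.925) and SNRNP25 (0.918), and for UBXN2B MINPP1 (0.975), FBXL5 (0.974) and KIAA1468 (0.974). The libraries share conditions, so these values describe the order of levels and carry no test. Within the set, UBXN2B ran with UBXN4 (r = 0.914), whereas FAF1 ran against UBXN2A (r = −0.883) and UBXN6 (r = −0.850).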

How the data were processed

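RNA-seq was done on poly-A selected, stranded libraries, read as single reads, from 3 replicates of 4 conditions. The table the authors deposited holds counts for each gene, not normalized, beside the percent GC of the gene. The submitters' processing notes name GRCh38, cutadapt 1.15, Bowtie2 2.3.3.1, STAR 2.5.2b, SAMtools 1.5 and featureCounts 1.5.3, without their role or the strand setting. Groups came from the sample labels, and 0 columns could not be mapped.

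Genes were filtered by filterByExpr by group (minimum count 10), which left 16657 genes, and TMM-normalized (factors 0.971 to 1.03). All 12 libraries entered 1 fit in edgeR 4.0.16 (R 4.3.3) with 4 group means, compared by the quasi-likelihood F test with Benjamini-Hochberg adjustment over all tested genes (threshold 0.05). The likelihood ratio test, which the study used, and DESeq2 1.42.0 were alternatives. The fit was tested on simulated data, with changes planted in treated SDS22-degron libraries. A planted log2 change of 0.5 was called for 77% of 100 genes between the treated lines. It was called for 75% with Dox/IAA in SDS22-degron cells, but for only 38% in the interaction. A planted change of 1 was called for 94% in the interaction. RPKM used the gene lengths of the table. Replicates are biological replicates by their titles, and between them the chi-square per degree of freedom was 2.16 to 9.73, above counting noise. Intervals are 95% confidence intervals. Deviations of same-numbered libraries correlated over 0.1 in all 3 pairs between the parental conditions (up to 0.246) and between the treated lines (up to 0.138). Between the other groups only replicate 3 of the untreated lines was over 0.1 (0.118).

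The members and gene lists were chosen with earlier results of these data known. Named genes are the 10 members, all 6 of the nascent PP1 list, up to 3 of each other list of lowest p in the treated-line comparison and with Dox/IAA in SDS22-degron cells, and the genes most like VCP, NSFL1C and UBXN2B; not all are given. Alternatives were other normalizations and filters, a fit of the compared groups alone, a replicate block, a GC correction (loess), each library left out, a cut-off on p and fold change, and subtraction of the chromosome median.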

Additional observations from a re-analysis of the deposited data

Results flagged for a closer look

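Outside the 10 genes, several named genes passed the interaction term of edgeR (adjusted p under 0.05), as did 14.4% of all genes. They had been named for their low p between the treated lines or with Dox/IAA in SDS22-degron cells. Both comparisons share libraries with the interaction, so these genes were more likely to pass it, and their passing is a description. Each is given as its log2 difference, SDS22-degron minus parental. RNF31 (HOIP), a VCP-binding ubiquitin ligase, had 0.54 (adjusted p = 0.00364), and the ER lectin OS9 0.55 (adjusted p = 0.00246). TCF25, which acts in ribosome quality control, had 0.39 (adjusted p = 0.00635), and the ubiquitin-conjugating enzyme UBE2G2 −0.33 (adjusted p = 0.0110). Both differed between the untreated lines, TCF25 by −0.43 (adjusted p = 4.9e-05) and UBE2G2 by 0.22 (adjusted p = 0.00703). Neither passed between the treated lines (−0.05, adjusted p = 0.584, and −0.11, adjusted p = 0.145). Among proteasome genes, PSMD2 had −0.55 (adjusted p = 0.00641), PSMC3 −0.52 (0.00144), PSMB7 −0.46 (0.00122), PSMB3 −0.48 (0.00506) and PSMD14 −0.44 (0.00962). None of the 10 genes for VCP and its cofactors passed this test, and 3 did with the replicate number as a block.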

How the results depend on the processing

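The count of the 10 genes called stayed within 1.5 times of the value given in 22 of 23 alternatives for Dox/IAA in SDS22-degron cells and in 21 of 23 between the treated and between the untreated lines. The cut-off of an unadjusted p under 0.05 with an absolute log2 fold change above 1 left 0 in each comparison, by its construction. Leaving out each library gave 4 to 6 called between the treated lines, 2 to 4 between the untreated lines (2 without untreated SDS22-degron replicate 2), 5 to 6 with Dox/IAA in SDS22-degron cells, 2 to 5 in parental cells and 0 to 3 in the interaction. In parental cells, the count fell from 5 to 3 without a filter on low counts and to 2 with only the groups compared, to 2 without untreated parental replicate 2 or without treated parental replicate 1 or 3, and to 3 without untreated parental replicate 3 or untreated SDS22-degron replicate 2. In the interaction it was 3 without untreated parental replicate 2 and 1 without treated parental replicate 1 or treated SDS22-degron replicate 3. The causes were not tested.

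The replicate block, a term for the replicate number, gave 3 called in the interaction instead of 0 (NSFL1C, adjusted p = 0.0372, UBXN6, 0.0405, and NPLOC4, 0.0492), 6 between the treated lines and 6 with Dox/IAA in parental cells; with the GC correction added, the replicate block gave 2 in the interaction and 8 between the treated lines. Deviations of same-numbered libraries correlated at −0.0569 to 0.246, over 0.1 in 7 of 18 pairs, and 12 of 12 libraries correlated best with their own number, a hint from the data. All 3 pairs were over 0.1 between the parental conditions and between the treated lines. Between the other groups only replicate 3 of the untreated lines was (0.118). The blocked values therefore stand beside the results they change. For the log2 ratio of NSFL1C to UBXN2B a block cannot change a difference of means in this balanced design and tests nothing. With Dox/IAA in SDS22-degron cells it ran from −0.67 to −0.51 when 1 library was left out.

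Reversals concerned values near 0 that did not pass. VCP between the treated lines was −0.011 without a filter, −0.015 with the GC correction, −0.015 with GC correction and replicate block, and −0.032 to 0.049 when a library was left out. NPLOC4 between the treated lines was 0.0037 with the upper quartile and −0.11 to 0.031 when a library was left out, and with Dox/IAA in SDS22-degron cells −0.067 to 0.089. UBXN4 between the untreated lines was 0.0024 with the upper quartile. When a library was left out, UBXN2B between the untreated lines ran from −0.046 to 0.072 and NSFL1C with Dox/IAA in parental cells from −0.0040 to 0.13. Counts over the other gene lists stayed within 1.5 times in 769 of 872 cases. At this depth, 3 replicates left a median standard error of 0.110 on the log2 scale between groups, so differences of that size could not be told from 0.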

Other observations

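Of 5 regulators that act in restoring proteasome gene expression when proteasome activity is low, 3 rose and 1 fell with Dox/IAA in SDS22-degron cells. Of all genes, 51.5% passed in this comparison (26% higher and 25.5% lower), 31.6% in parental cells and 14.4% in the interaction. With Dox/IAA in SDS22-degron cells, the transcription factors NFE2L1, a client of VCP, and NFE2L2 rose by 0.46 (adjusted p = 5.66e-06) and 0.45 (adjusted p = 4.79e-05) on the log2 scale, and the protease DDI2, which cleaves NFE2L1, had a log2 fold change of −0.32 (adjusted p = 0.000807). In parental cells NFE2L1 and NFE2L2 rose by 0.21 (adjusted p = 0.0131) and 0.24 (adjusted p = 0.0182). NFE2L1 averaged 319.7 ± 10.0 CPM without and 438 ± 14.7 CPM with Dox/IAA in SDS22-degron cells (SD, n = 3). The interaction did not pass for either factor (0.25, adjusted p = 0.0632, and 0.21, adjusted p = 0.183). Of the 5 regulators tested, the interaction passed for 0 by edgeR and 1 by DESeq2, and 2 had an unadjusted p under 0.05. In parental cells, 0 of the 5 passed without treated parental replicate 3 and 1 without untreated or treated parental replicate 1.

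Of 5 genes whose products VCP meets on stalled ribosomes or in stress granules, 1 rose and 2 fell with Dox/IAA in SDS22-degron cells. This is near the share among all genes, of which 51.5% passed there and 31.6% in parental cells. TCF25 had a log2 fold change of 0.37 (adjusted p = 7.40e-05), the stress granule protein G3BP1 −0.48 (adjusted p = 1.53e-05) and the ribosome collision sensor ZNF598 −0.43 (adjusted p = 1.85e-05). G3BP1 and ZNF598 also passed in parental cells, with −0.39 (adjusted p = 0.000358) and −0.22 (adjusted p = 0.0134), whereas TCF25 had −0.02 there. TCF25 was lower in untreated SDS22-degron than in untreated parental cells (−0.43, adjusted p = 4.9e-05). Between the treated lines it did not pass (−0.05, adjusted p = 0.584). Without untreated parental replicate 2, 1 of the 5 passed in parental cells.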
